A study of Mus musculus with 18 samples.

Results

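Antioxidant enzymes and their regulators were followed through the hippocampus of mice exposed to intermittent hypoxia treatment (IHT), an experimental model of sleep-disordered breathing, and of mice reared for 12 months. The set was a list of 40 genes fixed by name: peroxiredoxins, superoxide dismutases, catalase, glutathione peroxidases, the thioredoxin and glutaredoxin systems, the enzymes that make, reduce and use glutathione, NQO1, the heme oxygenases, and the regulators NRF2 (Nfe2l2) and KEAP1. Of these, 37 had a probe set of their own on the Affymetrix mouse genome array, and 35 had a mean signal above 20 and were tested among 11656 genes. Where a gene had several probe sets, the one of highest mean signal stood for it. Hmox1, the inducible heme oxygenase (mean signal 19.9), lay just below this minimum, and Sod3, the extracellular superoxide dismutase (13.6), further below it. Glrx3 (20.9) lay just above it and Gpx3 (26.6) somewhat higher. The probe sets of Prdx1 were shared with Gm21399, and Prdx1, Prdx5 and Prdx6 were not analysed here.

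The 18 arrays fell into 6 groups of 3, all of male C57Bl/6 mice by the labels (C57BL/6J in the study's methods). Ctrl were untreated controls, Ctrl28 were controls kept in normoxia for 28 days, IH5D and IH28D received IHT for 5 and 28 days, IH5DR2 received IHT for 5 days and then 64 h of normoxia, and the mice of the 12 m group were reared for 12 months without IHT. The young mice were 10 weeks old when treatment started. Each 3 min cycle of IHT gave nitrogen for 1 min and room air for 2 min, took the inspired oxygen between 21% and 5%, and was repeated for 8 h per day. The labels name no transgene or deletion. The labels do not say whether the 3 arrays of a group came from separate mice, so the p-values reflect only how these arrays vary, which may be technical, and the number of arrays limits the precision. Signals are unlogged MAS5 signals, fold changes are on the log2 scale, and a gene rose or fell where the Benjamini-Hochberg adjusted p of limma, over all 11656 genes, was below 0.05.

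These genes encode enzymes that remove reactive oxygen species and electrophiles, and proteins that supply or regulate them. Superoxide dismutases turn superoxide into hydrogen peroxide, and catalase, the peroxiredoxins and the glutathione peroxidases reduce that peroxide, the peroxiredoxins with electrons from thioredoxin and the glutathione peroxidases with electrons from glutathione. Glutathione transferases couple glutathione to reactive lipids and other electrophiles. Many of the genes are transcribed through NRF2, which KEAP1 marks for degradation until oxidants or electrophiles modify KEAP1. NRF2 then binds antioxidant response elements with a small MAF partner. In the brain, astrocytes are known for much of the NRF2 response and of the glutathione supply to neurons.

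The core letters of the antioxidant response element, TGACNNNGC, were searched on both strands in promoter windows of RefSeq (GRCm38.p6, from 250 bases before to 50 bases after each gene start). Of 34 members with a window, 8 held the core (23.53%), against 13.99% of 27025 genes with a window. A match is a description of letters and not a binding site. The stretches around 7 of these cores are shown because NRF2 is the common regulator of the set, with the core in capitals and each read 5′ to 3′ on the strand on which the core reads forward.
Gclm: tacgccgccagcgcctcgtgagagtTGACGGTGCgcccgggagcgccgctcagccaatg
Gstm5: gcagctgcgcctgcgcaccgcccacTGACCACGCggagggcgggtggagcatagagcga
Mgst1: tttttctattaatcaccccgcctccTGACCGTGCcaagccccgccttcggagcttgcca
Nfe2l2: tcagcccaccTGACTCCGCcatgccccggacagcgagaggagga
Prdx1: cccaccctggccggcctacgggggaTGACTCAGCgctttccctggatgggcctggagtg
Sod1: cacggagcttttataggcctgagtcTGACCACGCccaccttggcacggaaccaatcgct
Txnrd1: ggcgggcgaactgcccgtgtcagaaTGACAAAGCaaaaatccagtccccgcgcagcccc
The stretch of Gclm, which encodes the modifier subunit of glutamate-cysteine ligase, lies upstream of the gene at chr3:122245398-122245456 on the minus strand. That of Gstm5 is at chr3:107895787-107895845 on the plus strand, and that of Mgst1 at chr6:138140446-138140504 on the minus strand. The Nfe2l2 stretch is at chr2:75704870-75704913 on the minus strand, and the Prdx1 stretch at chr4:116685441-116685499 on the minus strand. The Sod1 stretch is at chr16:90220681-90220739 and the Txnrd1 stretch at chr10:82859089-82859147, both on the minus strand. All 7 lie before the gene start. The core of Srxn1, the sulfiredoxin that repairs overoxidized peroxiredoxins, lies after the gene start, and its sequence is not shown. Of the 7 holders that were tested, Gstm5, Mgst1, Sod1 and Srxn1 fell at 12 m, and Gclm, Nfe2l2 and Txnrd1 did not pass there. Of all 35 members tested 24 fell at 12 m, and of all genes 31.6%, and a link between core and change was not tested.

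Before the comparisons, 2 arrays stood apart. On Ctrl28 array 1 the 3′ probe sets of the actin and Gapdh controls exceeded the 5′ probe sets by 2.39 (mean log2 difference), against 0.33 to 0.97 on the other 17 arrays. This gap also separated groups. It was 0.82 and 0.97 on the other Ctrl28 arrays and 0.62 to 0.86 at 12 m, above the 0.34 to 0.47 of Ctrl and the 0.33 to 0.42 of IH28D, so it moved with the comparisons of 12 m and Ctrl28 with Ctrl and of IH28D with Ctrl28. It was 0.46 to 0.53 in IH5D and 0.48 to 0.49 in IH5DR2. Counts with the gap as a covariate are given with each comparison against a control. On this array Txn1, the cytosolic thioredoxin, read 2492 against 963 and 998 on the other Ctrl28 arrays, and Keap1 read 306 against 128 and 120.3. Of the 35 members, 3 were higher there by more than 1 (log2) than on the other Ctrl28 arrays and 1 was lower by as much, against 6.19% and 7.54% of all genes. On 12 m array 3 the mean log2 signal of hippocampal neuron markers was 6.69, against 8.74 to 9.10 on the other arrays, and that of neocortex, striatum and septum markers was 8.38, against 6.61 to 7.01. There Prox1, which marks dentate granule cells, read 17.0 (60.7 to 197 elsewhere) and Wfs1, a marker of CA1 pyramidal neurons, 159 (337 to 846 elsewhere), so this array departed from its hippocampus label. The counts of each comparison that uses one of these 2 arrays are given with and without it, as are the changes of members whose call rests on it. The Ctrl28 arrays also have later record numbers than the others, and a batch of their own and the group cannot be told apart.

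Hippocampi of 12 m mice had lower signals of antioxidant enzymes than Ctrl hippocampi across most roles. Of the 35 members tested, 24 fell and 0 rose, against 31.6% of all genes that fell and 21.7% that rose. Signals were lower at 12 m in 32 of 35 members, with a median log2 change of -0.55 against -0.23 over all genes tested. All 3 peroxiredoxins tested fell, as did both superoxide dismutases, all 7 glutathione transferases, 4 of 5 in the group of catalase and glutathione peroxidases, and 4 of 6 in the thioredoxin system. In the remaining roles fewer fell: 1 of 4 glutaredoxins (Glrx5, but not Glrx, Glrx2 or Glrx3), 2 of 4 in glutathione synthesis and reduction, 1 of 2 in NQO1 and the heme oxygenases, and 0 of 2 regulators. In tissue samples, fewer cells of a type and less RNA per cell cannot be told apart.

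The glutathione transferases held the smallest p of the list at 12 m. Gstm1, a cytosolic transferase of the mu class, read 1173, 1325 and 1212 in Ctrl and 672, 631 and 537 at 12 m. All 12 m arrays lay below all Ctrl arrays, and the means of 1237 ± 79.1 and 614 ± 69.2 (SD, n = 3 arrays each) gave a log2 change of -1.02 ± 0.14 (SE, limma, adjusted p = 4.1e-05). Gstm5, a further mu-class enzyme that is prominent in brain, read 3197, 4055 and 4094 in Ctrl and 2316, 2251 and 2157 at 12 m. These groups did not overlap either, and the signal ratio was 0.593 (log2 change -0.75 ± 0.12, limma, adjusted p = 0.000112). The other transferases fell by 0.51 (Gstp1, the pi-class enzyme, a log2 value as are the following), 0.55 (Mgst3, a microsomal enzyme), 0.78 (Gsta4, which handles the lipid aldehyde 4-hydroxynonenal), 0.93 (Gsto1) and 0.96 (Mgst1).

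The mitochondrial members were lower at 12 m as well, and 4 of 6 fell. Txn2, the mitochondrial thioredoxin, read 434, 502 and 421 in Ctrl and 243, 188 and 223 at 12 m, that is less than any Ctrl array on each of them. Its log2 change was -1.06 ± 0.15 (limma, adjusted p = 6.17e-05). Glrx5, a mitochondrial glutaredoxin of iron-sulfur cluster assembly, read 1025, 1235 and 1175 in Ctrl and 630.4, 565 and 483 at 12 m, again without overlap (log2 change -1.04 ± 0.16, limma, adjusted p = 0.000118). Sod2, the manganese superoxide dismutase, read 805, 1113 and 972 in Ctrl and 566, 610.0 and 565 at 12 m (log2 change -0.72 ± 0.19, limma, adjusted p = 0.00476). Prdx3, the mitochondrial peroxiredoxin, fell by 0.54 on the log2 scale, while Glrx2 and Txnrd2 did not pass.

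Among the cytosolic and secretory peroxide-reducing enzymes, Prdx2, an abundant peroxiredoxin of neurons, read 1906, 2804 and 2329 in Ctrl and 1382, 1289.6 and 1237 at 12 m. The groups did not overlap, and the signal ratio was 0.555 (log2 change -0.83 ± 0.14, limma, adjusted p = 0.000139). Prdx4, the peroxiredoxin of the endoplasmic reticulum, read 262, 355 and 281 in Ctrl and 107, 93.8 and 154 at 12 m. It was lower on every 12 m array (log2 change -1.36 ± 0.23, limma, adjusted p = 0.000198). Gpx4, which reduces lipid hydroperoxides in membranes, read 2589, 3380.1 and 3089 in Ctrl and 1881, 1838 and 2119 at 12 m (log2 change -0.63 ± 0.19, limma, adjusted p = 0.0115). Gpx1, the cytosolic glutathione peroxidase, fell by 0.85 on the log2 scale, Gpx7, an enzyme of the endoplasmic reticulum, by 0.81, and Gpx3, the secreted peroxidase, by 2.85 from a low level (60.5, 57.4 and 37.4 in Ctrl, 22.7, 5.45 and 2.81 at 12 m). Sod1, the copper and zinc enzyme of the cytosol, read 2239, 2997 and 2532 in Ctrl and 1829.7, 1659.6 and 1791 at 12 m (log2 change -0.55, limma, adjusted p = 0.0258). A weaker probe set of Sod1, with a mean signal of 91.9, was higher at 12 m by 0.45 on the log2 scale. Over all members that passed at 12 m, 18 of 19 further probe sets had the sign of the one that stood for the gene.

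Among the 11 members that did not pass at 12 m were both subunits of the ligase that starts glutathione synthesis, and both regulators. The probe set that stood for Gclm read 240, 212 and 239 in Ctrl and 252, 236 and 217.5 at 12 m. A second probe set of Gclm read 46.1, 42.9 and 49.4 in Ctrl and 166, 176 and 140 at 12 m. The groups did not overlap there, so the probe sets of Gclm disagreed. Gclc, the catalytic subunit of glutamate-cysteine ligase and the rate-limiting step of glutathione synthesis, read 291, 191 and 239.5 in Ctrl and 312, 311 and 277 at 12 m (log2 change 0.34 ± 0.17, limma, adjusted p = 0.108). Nfe2l2 read 108, 94.5 and 87.4 in Ctrl and 124, 109 and 82.7 at 12 m, with overlapping groups (log2 change 0.11, limma, adjusted p = 0.589). Keap1 read 299, 254 and 278 in Ctrl and 165, 204 and 207 at 12 m. These Keap1 groups did not overlap, but the change did not pass (log2 -0.53, limma, adjusted p = 0.074). A second probe set of Keap1 read 76.4, 81.0 and 52.3 in Ctrl and 41.3, 23.55 and 39.7 at 12 m, also without overlap. Nqo1, a quinone reductase often used as a readout of NRF2, was low in both groups, with 35.8, 51.2 and 29.5 in Ctrl and 45.5, 34.2 and 29.9 at 12 m (limma, adjusted p = 0.845). Cat, catalase of the peroxisome, read 399.9, 357 and 369 in Ctrl and 339, 332 and 306 at 12 m (limma, adjusted p = 0.341). A second probe set of Cat read 279, 302 and 308 in Ctrl and 236, 212 and 180 at 12 m. Neither probe set overlapped between the groups. By contrast with the 11 members that did not pass, Gss, the second enzyme of glutathione synthesis, fell from 82.3, 101 and 74.1 in Ctrl to 52.2, 42.8 and 40.4 at 12 m (log2 change -0.93, limma, adjusted p = 0.000268), and Gsr, glutathione reductase, fell by 0.41 on the log2 scale. Hmox2, the constitutive heme oxygenase, fell by 0.47, Txn1 by 0.69, Srxn1 by 0.37 and Txnip, an inhibitor of thioredoxin, by 0.57, also as log2 values, and Srxn1 overlapped between the groups.

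**Figure D1:**
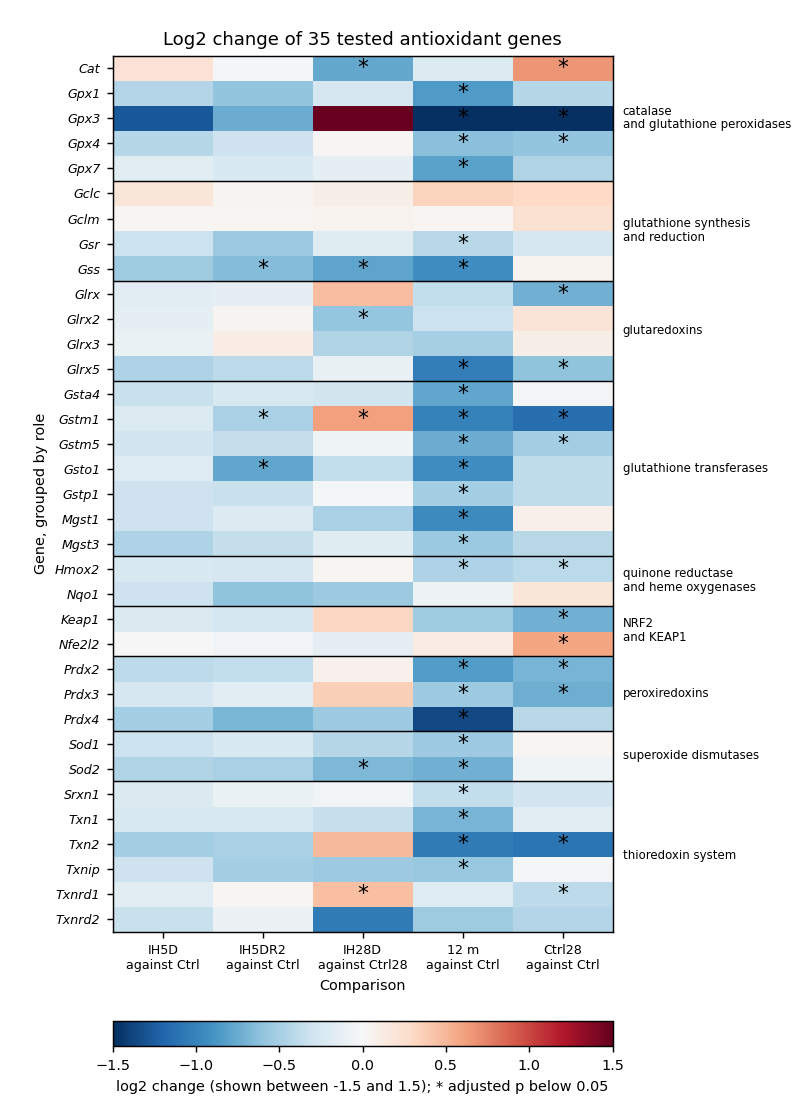
Log2 change of the 35 tested genes (vertical axis, grouped by role) in 5 comparisons (horizontal axis), with blue for lower and red for higher signals in the first group, shades held between -1.5 and 1.5, and asterisks at an adjusted p below 0.05 (limma). The 12 m column holds 24 asterisks, all on lower signals, and the IH5D column holds 0.

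Without 12 m array 3, 22 members fell at 12 m (all genes 28.4%, with 20.8% that rose). Txn1 (log2 change -0.65, limma, adjusted p = 0.0578) and Txnip (log2 change -0.52, adjusted p = 0.104) then no longer passed. With Ctrl28 array 1 left out, which enters only through the shared estimate of the spread, 27 fell and 1 rose (Gclc), against 36.9% and 23.6% of all genes. Under a fit that adjusts for the 3′ to 5′ gap, 27 fell and 1 rose likewise (all genes 38.4% and 24.1%). The counts differed more between the young controls. Against Ctrl28 in place of Ctrl, 7 members fell and 0 rose (all genes 8.30% and 8.04%), namely Gss, Cat, Mgst1, Prdx4, Gsta4, Sod2 and Nfe2l2. Gstm1, Txn2 and Prdx3 were then higher at 12 m by 0.12, 0.04 and 0.19 on the log2 scale, none of which passed. Markers of the choroid plexus, the epithelium that makes cerebrospinal fluid, also had lower signals at 12 m than in Ctrl. Of 11 choroid markers tested, 9 fell at 12 m, and their mean log2 signal was 3.48 to 4.26 at 12 m, 8.49, 8.68 and 5.15 in Ctrl, and 8.31 to 8.82 in Ctrl28. On Ctrl array 3, with the lowest choroid signal of its group, the median of the members was 0.01 (log2) from the Ctrl mean, which includes this array. It was -0.12 and 0.14 on the other Ctrl arrays. Array 3 also had the lowest choroid signal in IH28D (5.54), IH5DR2 (6.28) and IH5D (4.99). The members' median there was -0.55 in IH28D (-0.34 and -0.46 on the other arrays), -0.41 in IH5DR2 (-0.24 and -0.23) and -0.27 in IH5D (-0.44 and -0.21). The part of the choroid plexus in the 12 m result was not tested.

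**Figure D2:**
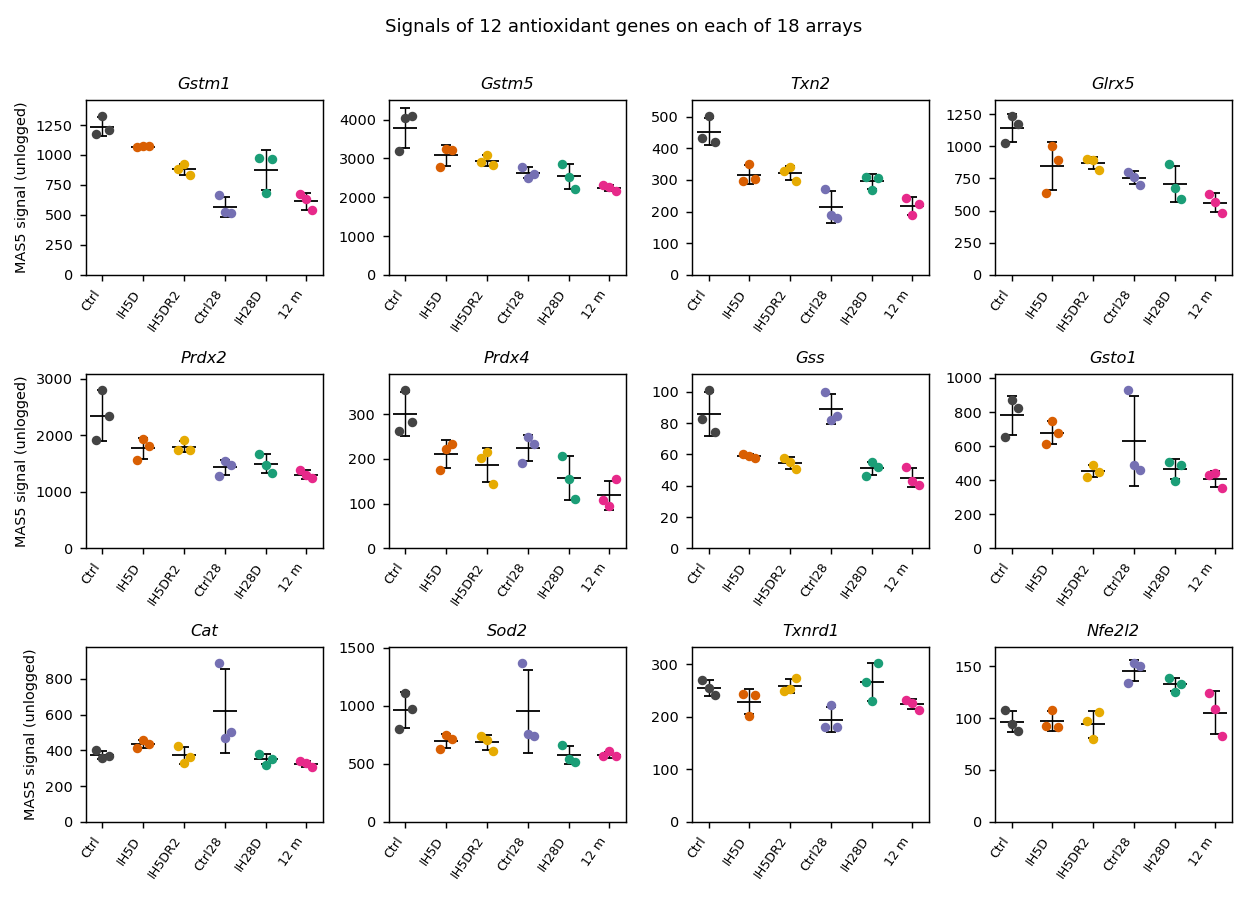
Unlogged MAS5 signals (vertical axes from 0) of 12 members on each array, by group (horizontal axes). Points are arrays 1 to 3 from left to right, and black marks are means with bars of 1 SD. Gstm5, Txn2, Glrx5 and Prdx2 sit lowest or nearly so at 12 m, and Cat and Sod2 have 1 Ctrl28 array far above the rest of its group.

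After 5 days of IHT, signals of the members were mostly lower than in Ctrl, but 0 rose and 0 fell by the test over all arrays, against 5.4% of all genes that rose and 1.12% that fell. The signal was lower in 31 of 35 members, with a median log2 change of -0.31 against -0.09 over all genes, and 9 of the 35 members had an unadjusted p below 0.05, against 29% of all genes. By the methods' t-test, 4 members had a p below the threshold without adjustment, against 22.2% of all genes, and 0 with it (all genes 0%). Choroid plexus markers were lower in 10 of 11 (median log2 change -0.84) and markers of meninges and fibroblasts in 6 of 9 (median -0.60). Of these, 0 choroid markers and 1 meningeal marker passed, and their part in the lower signals of the members was not tested. Txn2 read 298, 350.1 and 303 in IH5D, below all Ctrl arrays given above (log2 change -0.51 ± 0.15, limma, adjusted p = 0.0529). Gss read 82.3, 101 and 74.1 in Ctrl and 60.1, 59.1 and 57.7 in IH5D, again without overlap (log2 change -0.53 ± 0.16, limma, adjusted p = 0.0573). Glrx5 read 637, 1001 and 897 in IH5D, lower than every Ctrl array, and Prdx2 read 1569, 1926 and 1812, which overlapped with Ctrl.

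The dismutases and Gpx4 had lower signals after 5 days as well, without passing. Sod2 read 633, 751 and 719 in IH5D and did not overlap with Ctrl (log2 change -0.45 ± 0.19, limma, adjusted p = 0.134), and Sod1 read 1789.9, 2301 and 2101, which did overlap (limma, adjusted p = 0.271). Gpx4 read 1816, 2530.0 and 2390.1 and lay below all Ctrl arrays (log2 change -0.43, limma, adjusted p = 0.15). Cat read 414, 459.7 and 436 in IH5D, above all Ctrl arrays (log2 change 0.22 ± 0.18, limma, adjusted p = 0.416). Its second probe set read 279, 302 and 308 in Ctrl and 282, 287 and 283 in IH5D, so the groups overlapped there (log2 change -0.06). The regulators lay close to Ctrl, with Nfe2l2 at 92.7, 108 and 91.2 (log2 change 0.01) and Keap1 at 206, 245 and 267 (log2 change -0.22). Gclc read 247, 262 and 303 and Nqo1 23.7, 38.7 and 31.3, and both overlapped with Ctrl. The second probe set of Gclm read 46.1, 42.9 and 49.4 in Ctrl and 96.6, 125 and 88.9 in IH5D, without overlap. Hmox1, a classical target of hypoxia and of NRF2, was not tested at its low signal. It read 26.6, 32.2 and 34.0 in Ctrl and 11.8, 17.1 and 17.4 in IH5D. Sod3, also below the minimum, read 21.7, 30.3 and 21.6 in Ctrl and 0.827, 12.5 and 16.9 in IH5D.

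The count after 5 days depended on which arrays set the spread. Without Ctrl28 array 1, which is in neither group, 7 members fell and 0 rose (all genes 9.19% and 14.2%), namely Txn2, Sod2, Gss, Mgst3, Prdx2, Gstp1 and Glrx5. With the gap as a covariate 7 fell as well (all genes 10.3%, with 14.7% that rose). Arrays of Ctrl and IH5D with the same number deviated weakly together, and the labels state no pairing. With the number as a block 0 members passed over all arrays (all genes 3.72%), while 15 fell when only the 2 groups were fitted (all genes 18.4%, with 16.7% that rose). In the latter fit the smallest adjusted p was that of Gpx4 (0.000693).

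After 64 h of normoxia, 3 members had fallen against Ctrl and 0 had risen (all genes 1.24% and 4.38%). The median log2 change was -0.26, against -0.07 over all genes, and 13 of the 35 members had an unadjusted p below 0.05, against 28.5% of all genes. Gss read 57.8, 55.1 and 50.4 in IH5DR2, lower than every Ctrl array (log2 change -0.65 ± 0.16, limma, adjusted p = 0.0346). A second probe set of Gss, with a mean signal of 60.7, differed by 0.04 (log2) between these groups. Gsto1, an omega-class transferase, read 652, 869.8 and 821 in Ctrl and 419, 491 and 449 in IH5DR2. All 3 IH5DR2 arrays lay below Ctrl (log2 change -0.78 ± 0.21, limma, adjusted p = 0.0398). Gstm1 read 879, 922 and 836 in IH5DR2, also without overlap (log2 change -0.49 ± 0.14, limma, adjusted p = 0.0487). A second probe set of Gstm1 read 734, 918 and 904 in Ctrl and 682, 729 and 788 in IH5DR2, which overlapped. Its weaker probe sets were lower in IH5DR2 without overlap.

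The other members did not pass in IH5DR2. Sod2 read 741, 704 and 612 (limma, adjusted p = 0.114), Txn2 328, 342 and 298 (adjusted p = 0.066) and Txnip 81.2, 116 and 81.9, against 146, 156 and 98.9 in Ctrl (adjusted p = 0.157). Nfe2l2, Keap1, Cat and Gclc had log2 changes of -0.04, -0.26, -0.02 and 0.04, none of which passed. The second probe set of Gclm read 75.3, 92.2 and 82.5 in IH5DR2, above all Ctrl arrays. The second probe set of Keap1 read 45.9, 49.2 and 43.3, below all Ctrl arrays. Set directly against IH5D, IH5DR2 had 0 members that rose and 0 that fell, where the share of all genes was 0 in each direction. In that comparison 1 member had an unadjusted p below 0.05 by limma, against 418 of all genes (3.59%). By the methods' t-test 2 members did without adjustment (all genes 6.01%) and 0 with it (all genes 0%). The member with the limma p was Gsto1, which read 611, 747 and 678 in IH5D, above all IH5DR2 arrays (log2 change -0.58 ± 0.21, limma, adjusted p = 0.999). The 3 calls against Ctrl, Gss, Gsto1 and Gstm1, passed in 20, 15 and 10 of 30 other settings. All 3 were lost without Ctrl array 2 or 3, without any 1 of the IH5DR2 arrays, without a minimum signal, with the mean of probe sets and with median centring. When Ctrl28 array 1 was left out, 11 members fell in IH5DR2 against Ctrl (all genes 8.6%), and with the gap as a covariate 11 (all genes 8.7%), and these 3 were among them in both. With IH5DR2 set against Ctrl28, Gstm1 was higher by 0.64 on the log2 scale and passed (limma, adjusted p = 0.00639).

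**Figure D3:**
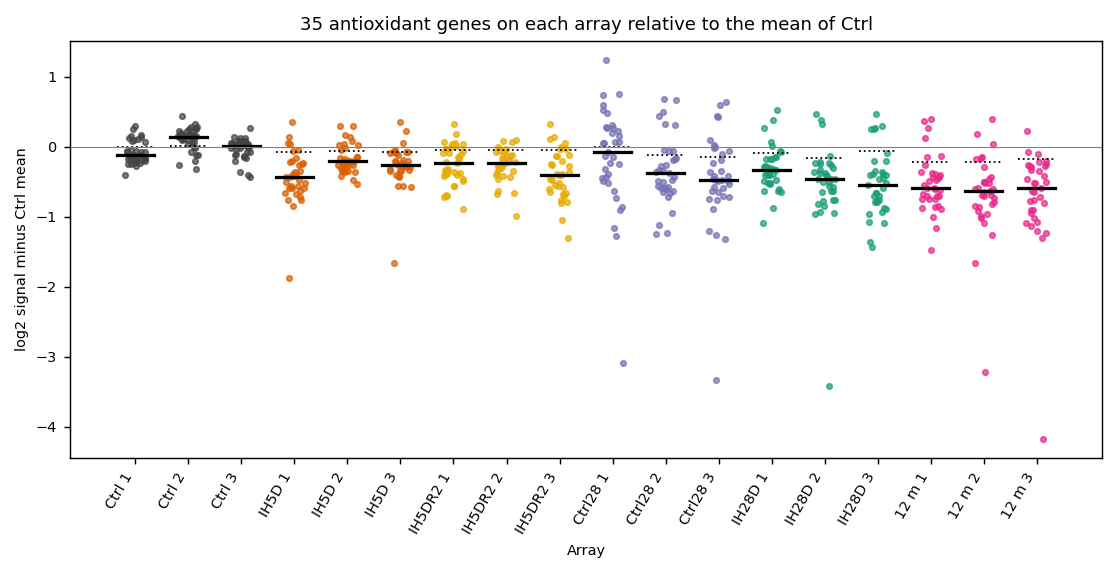
Log2 signal of each of the 35 tested genes minus its mean over the Ctrl arrays (vertical axis) on each of the 18 arrays (horizontal axis), with solid bars at the median of the 35 genes and dotted bars at the median of all genes tested. The medians of the 35 genes were -0.21 to -0.44 on the IH5D arrays, -0.23 to -0.41 on the IH5DR2 arrays and -0.59 to -0.64 on the 12 m arrays, where all genes had -0.18 to -0.22.

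After 28 days of IHT the members moved in both directions against Ctrl28. Of the 35, 2 rose and 4 fell (all genes 6.05% and 2.45%), and the median log2 change was -0.15 against 0.02 over all genes. Choroid plexus markers were lower in 11 of 11 (median log2 change -1.04), 0 of which passed, and their part in the changes of the members was not tested. Gstm1 rose, with 662, 525 and 515 in Ctrl28 and 977, 683 and 964 in IH28D (log2 change 0.62 ± 0.14, limma, adjusted p = 0.0118). A second probe set of Gstm1 read 365, 355 and 321 in Ctrl28 and 657, 615 and 814 in IH28D, without overlap. Its weaker probe sets, with means of 125 and 38.5 in Ctrl28 and 135 and 38.7 in IH28D, did overlap. With the mean of probe sets the call of Gstm1 was lost. Txnrd1, the cytosolic thioredoxin reductase, rose as well, with 181, 223 and 180.4 in Ctrl28 and 266, 231 and 302 in IH28D (log2 change 0.45 ± 0.13, limma, adjusted p = 0.0402). In the probe sets that stood for these genes, Gstm1 and Txnrd1, the groups did not overlap. The Ctrl28 values of both genes lay below those of Ctrl, where Gstm1 was 1237 ± 79.1 and Txnrd1 255 ± 14.4 (SD, n = 3 arrays).

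The 4 members that fell were Gss, Cat, Sod2 and Glrx2. Gss read 99.9, 81.9 and 84.8 in Ctrl28 and 46.3, 54.9 and 52.0 in IH28D (log2 change -0.80 ± 0.16, limma, adjusted p = 0.00577). The second probe set of Gss was higher in IH28D by 0.25 (log2), so the probe sets disagreed. Cat read 888, 469 and 501 in Ctrl28 and 377, 320.1 and 354 in IH28D (log2 change -0.76 ± 0.18, limma, adjusted p = 0.0146), with its first Ctrl28 array far above the others. A second probe set of Cat read 321, 318 and 282 in Ctrl28 and 233, 240 and 231 in IH28D, where no Ctrl28 array stood apart and the groups did not overlap. Sod2 read 1368, 756 and 742 in Ctrl28 and 667, 541 and 518 in IH28D (log2 change -0.68 ± 0.19, limma, adjusted p = 0.0341). Glrx2, a mitochondrial glutaredoxin, read 1152, 659.9 and 635 in Ctrl28 and 564, 513 and 500.0 in IH28D (log2 change -0.58 ± 0.17, limma, adjusted p = 0.0461). In Sod2 and Glrx2, as in Cat, Ctrl28 array 1 was the highest of the group. With the gap as a covariate, 4 members rose after 28 days (Keap1, Gstm1, Txn2 and Txn1) and 0 fell (all genes 11% and 4.94%). Of the 6 members that had passed, only Gstm1 still did (log2 change 0.80, limma, adjusted p = 0.00575). Gss then had a log2 change of -0.66 (adjusted p = 0.0588), Cat -0.19 (0.472), Sod2 -0.12 (0.725), Glrx2 -0.03 (0.923) and Txnrd1 0.33 (0.222).

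The defining members that did not pass after 28 days included both regulators. Nfe2l2 read 134, 153 and 150.0 in Ctrl28 and 138, 125 and 133 in IH28D (log2 change -0.14, limma, adjusted p = 0.649). Keap1 read 212, 213 and 201 in IH28D, between the array of Ctrl28 that stood apart and the rest of that group. A second probe set of Keap1 read 16.8, 18.7 and 27.2 in Ctrl28 and 63.7, 52.3 and 46.2 in IH28D. No Ctrl28 array stood apart there, and the groups did not overlap. Sod1 read 3879, 2117 and 2176 in Ctrl28 and 2323, 2002 and 1582 in IH28D (log2 change -0.43, limma, adjusted p = 0.182). Gpx4, Gclc, Nqo1 and Txnip had log2 changes of 0.02, 0.09, -0.55 and -0.54, with adjusted p from 0.153 to 0.969.

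Without Ctrl28 array 1, 3 members rose and 2 fell after 28 days (all genes 11.4% and 4.19%). Gss (log2 change -0.71, limma, adjusted p = 0.011), Cat (-0.47, 0.0113) and Gstm1 (0.73, 0.00121) passed. Sod2 (-0.39, 0.066), Glrx2 (-0.30, 0.0894) and Txnrd1 (0.40, 0.0529) no longer did, and Keap1 and Txn2 rose, by 0.75 and 0.67 on the log2 scale. Against Ctrl in place of Ctrl28, IH28D had 15 members that fell and 1 that rose (all genes 15.8% and 17.5%). Gstm1 then fell, by 0.52 on the log2 scale (limma, adjusted p = 0.0115), Gss by 0.74 and Sod2 by 0.74 likewise, and the member that rose was Nfe2l2 (log2 change 0.46, limma, adjusted p = 0.036). When only the groups Ctrl28 and IH28D were fitted, 0 members passed, as did 0.3% of all genes.

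**Figure D4:**
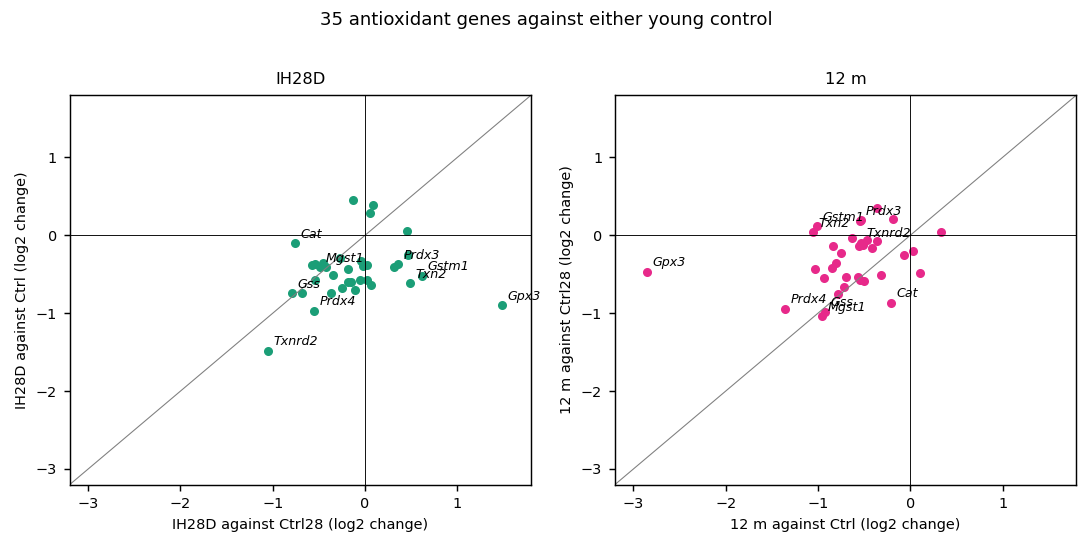
Log2 changes of the 35 tested genes in IH28D (left) and 12 m (right) against one young control (horizontal axis) and against the other (vertical axis), with the diagonal of equal change in grey. Gss and Prdx4 lie below 0 on both axes in both panels, and Gstm1 and Txn2 change side with the control in both panels.

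The 2 young controls themselves differed across all genes, of which 37.8% passed in either direction, and members were among them. In Ctrl28 against Ctrl, 2 members rose and 12 fell (all genes 16.9% and 21%), and the median log2 change was -0.38 against -0.08. Choroid plexus markers were higher in Ctrl28 in 11 of 11 (median log2 change 1.19), 0 of which passed. Gstm1 and Txn2, with the Ctrl28 values 662, 525 and 515 and 272, 189.6 and 180.4, lay below all Ctrl arrays, by -1.13 ± 0.14 and -1.10 ± 0.15 as log2 changes (limma, adjusted p = 2.01e-05 and 5.75e-05). Prdx2 read 1278, 1535 and 1478 in Ctrl28 (log2 change -0.70 ± 0.14, limma, adjusted p = 0.000819), and Gstm5 read 2789, 2505 and 2599 (log2 change -0.52 ± 0.12, adjusted p = 0.00274). Neither overlapped with Ctrl. Glrx, the cytosolic glutaredoxin, read 269.6, 294 and 278 in Ctrl and 126, 198 and 199 in Ctrl28 (log2 change -0.72 ± 0.16, limma, adjusted p = 0.00278). Prdx3 read 618, 771 and 722 in Ctrl and 288, 520.4 and 502 in Ctrl28 (log2 change -0.73 ± 0.17, limma, adjusted p = 0.0035), and both genes were lowest on Ctrl28 array 1.

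The members that rose in Ctrl28 were the regulator Nfe2l2 and Cat. Nfe2l2 read 108, 94.5 and 87.4 in Ctrl and 134, 153 and 150.0 in Ctrl28, with every Ctrl28 array above every Ctrl array (log2 change 0.59 ± 0.16, limma, adjusted p = 0.00804). Cat was higher by 0.66 ± 0.18 (limma, adjusted p = 0.00862), and without Ctrl28 array 1 by 0.37 (limma, adjusted p = 0.0149). Its second probe set gave a log2 change of 0.05, with 321, 318 and 282 in Ctrl28 against 279, 302 and 308 in Ctrl, so the probe sets disagreed and the second overlapped between the groups. Keap1 fell (-0.72), as did Glrx5 (-0.60), Gpx3 (-2.38), Gpx4 (-0.59), Hmox2 (-0.41) and Txnrd1 (-0.39), all as log2 changes, and Keap1 and Hmox2 overlapped between the groups. The second probe set of Keap1 read 76.4, 81.0 and 52.3 in Ctrl and 16.8, 18.7 and 27.2 in Ctrl28, and did not overlap. Without Ctrl28 array 1, 4 members rose and 20 fell (all genes 23.8% and 29.5%). Gclc and Gclm then rose, by 0.52 and 0.46 on the log2 scale, Keap1 had a log2 change of -1.16, and Prdx3 and Glrx had -0.45 and -0.50. With the gap as a covariate 3 rose and 15 fell (all genes 22.2% and 28.1%), and Cat, Glrx, Gpx3, Prdx3 and Txnrd1 no longer passed.

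The response to 28 days of IHT was also set against the response to 5 days, each against its own control, in 1 test of the difference. It passed for 4 members, 3 of them higher and 1 lower (all genes 6.57% and 3.08%). Txn2 had a log2 change of 0.48 in IH28D and -0.51 in IH5D, Gstm1 0.62 and -0.21, and Txnrd1 0.45 and -0.16. Cat had -0.76 and 0.22. Gss, which fell in IH28D and was lower on all IH5D arrays, did not pass this test (-0.80 and -0.53, limma, adjusted p = 0.513). The Ctrl28 values enter each of these differences. Without Ctrl28 array 1 the test passed for 6 members in the higher direction and 1 in the lower (all genes 15.9% and 12.7%). With the gap as a covariate it passed for 6 and 1 as well (all genes 16.4% and 13.9%), among them Txn2 and Gstm1 but not Cat (adjusted p = 0.196) or Txnrd1 (0.107).

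Genes of neighbouring pathways, in lists chosen for their roles, rose as well as fell at 12 m. The shares of all genes were 21.7% that rose and 31.6% that fell. Of 19 further glutathione enzymes tested, 3 rose and 10 fell. Chac2, which degrades glutathione, rose by 1.07 and Slc7a11, the cystine importer that feeds glutathione synthesis, by 1.18, while Hagh of the glyoxalase pathway fell by 0.77 and Gstm7 by 1.16 (log2 changes, as in the rest of the paragraph). Of 20 NRF2 partners and further targets, 3 rose and 8 fell. Cul3, the ubiquitin ligase scaffold that acts with KEAP1, rose by 1.48 and Bach1, a repressor at antioxidant response elements, by 0.95, while Ephx1, the microsomal epoxide hydrolase, fell by 1.30 and Slc48a1, a heme transporter, by 0.62. Of 15 genes of NADPH supply, 1 rose and 8 fell, with Nadk2 higher by 1.03 while Pgls of the pentose phosphate pathway fell by 0.97 and Taldo1 of the same pathway fell by 0.69. Of 27 further thioredoxin-fold and methionine sulfoxide enzymes, 4 rose and 15 fell, with Tmx3 and Selenot higher by 1.60 and 1.35 while P4hb fell by 0.59 and Selenom fell by 0.94. Of 17 genes of further stress defence, 2 rose (Oxr1 by 1.31, Sesn3 by 1.14) and 8 fell, Apex1, a DNA repair endonuclease, by 0.92 and Parl, a mitochondrial protease, by 0.71. Txnip is in both the set of 40 and the list of NRF2 partners and targets.

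In the IHT groups the following neighbours passed, from the same lists of 19, 20, 15, 27 and 17 genes tested. After 5 days, Bach1 (log2 change 0.75), Chac2 (0.60), Oxr1 (0.74), Selenot (0.84), Tmx4 (0.41) and Tmx3 (0.86) rose and 0 fell. Of all genes, 5.4% rose and 1.12% fell there. After 64 h of normoxia, Cul3 (0.87), Bach1 (0.57), Chac2 (0.62), Oxr1 (0.73), Sesn3 (0.64) and Selenot (0.73) rose, and Idh2 (-0.47) and Pgls (-0.61), both of NADPH supply, fell (all genes 4.38% that rose and 1.24% that fell). Both of these comparisons use the same Ctrl arrays. After 28 days, against Ctrl28, Sqstm1, an autophagy receptor that binds KEAP1 (0.88), Slc48a1 (0.58), Oplah (0.70) and Ggt7 (0.45), both of glutathione turnover, rose, and 8 of the neighbours fell, among them Tmx1 (-0.68), Selenop (-0.47), Tkt (-0.75), Idh1 (-0.65) and Pon2 (-0.45). Of all genes, 6.05% rose and 2.45% fell in that comparison.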

How the data were processed

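RNA of mouse hippocampus was measured on 18 Affymetrix arrays, 3 in each of 6 groups taken from the sample labels. The authors made normalized MAS5 signals and deposited their log2 for 45101 probe sets (trimmed mean of the unlogged signals 100.03 to 100.04 on each array, 48.0% to 54.4% of probe sets above 20). Of these probe sets, 64 are controls, 34945 name 1 gene, 932 several and 9160 none in the platform annotation. Probe sets of 1 gene with a mean unlogged signal above 20 were kept (19919), and the one of highest mean stood for each of 11656 genes. One model in limma 3.58.1 (run in R 4.3.3) estimated a mean per group with 12 residual degrees of freedom and variances moderated with a trend. Its two-sided p-values were adjusted by Benjamini-Hochberg across the 11656 genes, with a threshold of 0.05, and it was tested on simulated data.

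Members, lists and tests were chosen with earlier results of these data known. In each comparison up to 6 members of smallest p in each direction are given on every array, further members that passed by their log2 change, defining members of a role by their levels, and 2 genes in each direction from each neighbouring list (the members that passed under other settings, the second probe sets and the further neighbours in IHT groups were named after their values were seen). Only between IH5D and Ctrl did each array deviate most like the array of the same number (correlations of deviations 0.15, 0.29 and 0.24). These correlations were weak, those of same-numbered arrays in the other comparisons ran from -0.37 to 0.28, and the labels state no pairing. Alternatives were other scaling, no minimum, the mean of probe sets, replicate blocks, the 3′ to 5′ gap as covariate, the methods' t-test (unequal variances, on unlogged signals; the study's test for altered genes, taken between 2 groups), the other young control, the compared groups alone and leaving out arrays. Leaving out both arrays that stand apart was chosen after seeing the data.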

Additional observations from a re-analysis of the deposited data

Results flagged for a closer look

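For 4 members the response to IHT differed between 28 and 5 days, each against its own control, by limma's test of the difference over all 11656 genes (12 residual degrees of freedom). Txn2 had a difference of 0.997 on the log2 scale (SE 0.22, adjusted p = 0.00933), and 3 of 3 IH5D arrays lay below all Ctrl arrays. Gstm1 had a difference of 0.82 (SE 0.20, adjusted p = 0.0158), and 3 of 3 IH28D arrays lay above all Ctrl28 arrays. Txnrd1 had a difference of 0.61 (SE 0.19, adjusted p = 0.0457), which passed in 6 of 27 other settings. Cat had a difference of -0.98 (SE 0.25, adjusted p = 0.0223), and 3 of 3 IH28D arrays lay below all Ctrl28 arrays. Each difference includes the shift between the controls. Mean signals in Ctrl, Ctrl28, IH5D and IH28D were 452, 214, 317 and 295 for Txn2, and 1237, 567, 1071 and 875 for Gstm1. They were 255, 195, 229 and 266 for Txnrd1, and 376, 619, 437 and 350 for Cat. A batch of the Ctrl28 arrays, which have later record numbers, cannot be told apart from their group. Without Ctrl28 array 1, whose 3′ to 5′ gap was 2.39, the adjusted p were 0.000174 for Txn2, 0.0012 for Gstm1, 0.0277 for Txnrd1 and 0.00416 for Cat. With the gap as a covariate over all arrays, Txn2 (difference 1.33, adjusted p = 0.000641) and Gstm1 (1.03, adjusted p = 0.00298) passed, and Cat (-0.36, adjusted p = 0.196) and Txnrd1 (0.48, adjusted p = 0.107) did not.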

How the results depend on the processing

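Counts of members that passed, in either direction, moved with the processing, and where no value shows it the cause was not tested. With only the compared groups fitted, they were 6 (IH5D), 11 (IH5DR2), 0 (IH28D), 8 (Ctrl28 against Ctrl) and 2 (difference of IH28D from IH5D). The shares of all genes were 18.3%, 18.8%, 0.3%, 16.9% and 5.95%. With the replicate block added to that fit they were 15, 15, 0, 0 and 0 (all genes 35.1%, 22.7%, 0.309%, 0% and 2.67%). For IH5DR2 against IH5D that fit gave 1 (all genes 0.137%). With the replicate block over all arrays, 1 member passed in IH5DR2 (all genes 2.92%), and the other counts stayed within 1.5 times those without it. With the 3′ to 5′ gap as covariate they were 7 (IH5D), 11 (IH5DR2) and 7 (difference), against 25%, 22.5% and 30.3% of all genes. Without Ctrl28 array 1 and 12 m array 3 they were 8, 12, 7 and, in Ctrl28 against Ctrl, 24 (all genes 27.3%, 26.6%, 32% and 56.1%). In IH5DR2 none passed without a minimum signal, with the mean of probe sets or with median centring (0 each). The shares of all genes there were 2.05%, 2.82% and 1.41%. Median centring left 2 in IH28D (all genes 3.77%) and 1 for the difference (all genes 5.21%). The methods' t-test without adjustment gave 4 (IH5D), 7 (IH5DR2), 2 (IH28D) and 2 (IH5DR2 against IH5D), against 22.2%, 21.6%, 10.2% and 6.01% of all genes. With adjustment it gave 0 in IH5DR2, IH28D and Ctrl28 against Ctrl (all genes 0%, 0.00858% and 0%) and 4 at 12 m (all genes 13%). Against the other young control the counts were 5 (IH5D), 8 (IH5DR2), 16 (IH28D) and 7 (12 m), where all genes had 7.67%, 11.2%, 33.3% and 16.3%. There 5 calls, of 3 members, turned direction: Gstm1 in IH5DR2 (0.64), in IH28D (-0.52) and at 12 m (0.12), and Prdx3 (0.19) and Txn2 (0.043) at 12 m. Leaving out 1 array at a time gave 0 to 7 (IH5D), 0 to 11 (IH5DR2), 2 to 7 (IH28D), 15 to 28 (12 m), 0 to 0 (IH5DR2 against IH5D), 9 to 24 (Ctrl28 against Ctrl) and 2 to 7 (difference). In the same order, the shares of all genes ran from 0% to 23.4%, 0% to 22.3%, 3.96% to 15.6%, 39.7% to 60.5%, 0% to 0.0172%, 24.3% to 53.3% and 4.54% to 28.6%. The lowest counts at 12 m and in Ctrl28 against Ctrl came without Ctrl array 2, the same 9 without Ctrl28 array 3, the highest without Ctrl28 array 1 (except in IH28D and in IH5DR2 against IH5D), and 2 in IH28D without IH28D array 3. In IH5DR2, 0 passed without Ctrl array 2 or 3 or any 1 IH5DR2 array, where 0% to 0.721% of all genes passed. Of 51 calls of single members, 43 passed in the same direction with quantile normalization, 40 with median centring and 8 of 33 against the other control. Median centring moved the median log2 change of all genes from -0.23 to -0.47 at 12 m and from -0.09 to -0.20 in IH5D. MAS5 signals near or below 20, such as those of Gpx3, Nqo1 and Hmox1, limit what the arrays resolve.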
